A study of Mus musculus with 4 samples.

Results

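MHC class II molecules display peptides from taken-up proteins to CD4+ T cells, and each molecule pairs an alpha with a beta chain. The invariant chain, encoded by Cd74, holds the new pair until the lysosomal protease cathepsin S (Ctss) trims it, and the H2-DM heterodimer (H2-DMa with H2-DMb1) then exchanges the last fragment for a peptide. In skin the class II genes are known for their high level in Langerhans cells, the dendritic cells of the epidermis, which carry langerin (Cd207) and CD11c (Itgax), and the coactivator CIITA (Ciita) switches these genes on.

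The 10 genes described here are Cd74, H2-Aa, H2-Ab1, H2-Eb1, H2-DMa, H2-DMb1, Ciita, Cd207, Itgax and Ctss. They were taken by symbol from the 24421 genes of the deposited table, and each had to have a mean normalized count above 0, as 17044 genes did. All 10 met that rule. The list was chosen by name with the group comparison of these same samples already known, so the levels below are a description and no test is run on them.

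RNA was sequenced in bulk from hair follicle stem cells (HF-SCs) of adult back skin, from 2 Ctrl and 2 miR-205 induced samples. The mice were at postnatal day 44 and doxycycline chow had begun on day 42, 2 days earlier. Induced mice carried a pTRE2-miR-205 transgene, first injected into FVB mice, with a Krt14-rtTA transactivator that the keratin 14 promoter drives, so the microRNA is induced in the cells that use that promoter. Every mouse, Ctrl included, also carried a Krt14-H2b-GFP allele, and the labels give the strain of all 4 samples as C57BL/6. The labels call the Ctrl mice untreated, whereas the sorting protocol says that both groups were fed doxycycline. Nothing in the labels says how many animals went into each sample. The sort kept live cells with high H2B-GFP, integrin alpha6 and CD34 and without Sca1, and did not use a leukocyte marker as far as the methods state.

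The table held 1 expression value per gene, the authors' mean of normalized counts over the 4 samples, beside the columns of their own group comparison, which were not used. No difference between Ctrl and miR-205 induced samples is therefore given for any gene. Each mean was written to 15 significant digits, and for 15055 of the 15189 genes with a mean of at most 1300 exactly 1 set of 4 whole read counts gave it. These 4 libraries are named A, B, C and D in ascending order of their size factors (0.716, 0.966, 1.18 and 1.24), which rest on sequencing depth. The means do not show which library belongs to which group, so the libraries are compared with each other only as 4 unlabelled samples. Reads in the recovered genes came to 2293785 in A, 3083101 in B, 3764317 in C and 4030192 in D.

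The sorted identity was checked first. Cd34 and Itga6, which encode 2 of the sorted surface proteins, had means of 14575 and 12910 normalized counts, and the 9 HF-SC genes examined ranged from 3192 for the transcription factor Lhx2 to 119883 for the bulge keratin Krt15 and 146090 for the basal keratin Krt5. Ly6a, which encodes the excluded Sca1, had 60.03, 179, 159 and 146 normalized counts in A, B, C and D. Transcripts of other skin cells were also present. The leukocyte list of 10 genes was detected in full, with summed normalized counts of 436 in A, 810.3 in B, 956 in C and 509 in D, and Ptprc, the common leukocyte antigen CD45, had 61.4, 99.3, 132 and 57.4. The class II genes were thus read in a population that held at least some leukocyte RNA. In bulk RNA, fewer cells of a type and less RNA per cell cannot be told apart.

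The label of the strain was checked with the class II genes themselves. C57BL/6 mice have the H-2b haplotype, in which a deletion removes the promoter of the E alpha chain gene H2-Ea, so that no E alpha chain is made. The table lists this locus as H2-Ea-ps, on chromosome 17 from 34341952 to 34344645, and RefSeq calls it a transcribed pseudogene. Its reads numbered 262 in A, 574 in B, 0 in C and 0 in D. In normalized counts that was 366 in A and 594 in B, whereas 0 reads allow up to 2.54 in C and 2.43 in D (3 reads). Libraries A and B thus held transcripts that a pure C57BL/6 genotype would not be expected to give, and libraries C and D did not at this depth. Per kilobase the gene reached 0.507 of H2-Eb1, its partner chain, in A (95% exact counting interval 0.436 to 0.587) and 0.590 in B (0.532 to 0.653). Whether the animals differed in their class II haplotype was not tested, and reads of polymorphic H2 genes can also be lost or gained when a genotype differs from the reference genome. H2-Aa, H2-Ab1 and H2-Eb1 below rest on the same 4 libraries, so beside their means the value of each library is printed.

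Among the 10 genes, Cd74 had the highest level. Its mean was 2744 normalized counts, or 1946 per kilobase of exon, which was higher than 98.2% of the 16337 genes with a length. Cd74 lies on chromosome 18 from 60803849 to 60812652. This mean lies above the highest one searched for whole reads (1300), so no level per library is given for it, and the 4 libraries together held between 7863 and 13573 of its reads. Cd74 stood 2.03-fold above H2-Eb1, the next gene in level per kilobase over all annotated exons. It was itself far below the keratins of the sorted cells. Krt14 was 26.6-fold higher per kilobase.

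The 3 classical chain genes lie side by side on chromosome 17. H2-Ab1 (A beta chain, 34263227 to 34269418), H2-Aa (A alpha chain, 34282744 to 34287823) and H2-Eb1 (E beta chain, 34305867 to 34316674) had means of 1209, 1123 and 1141 normalized counts. With the reads behind them, counting error alone gave 95% intervals of 1175 to 1242, 1091 to 1155 and 1108 to 1174. Such intervals cover counting error only and not the differences between animals. Per kilobase the order depended on which exons were counted. Over all annotated exons H2-Eb1 was at 959, H2-Ab1 at 735 and H2-Aa at 565, whereas over the longest transcript they were at 968, 998 and 992. The 3 chains were thus close to equal by the longest transcript, and no order between them is read from these data.

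H2-Aa had 577 normalized counts in A, 1016 in B, 1929.9 in C and 969.6 in D. H2-Ab1 followed with 780.4 in A, 1165 in B, 1902 in C and 987 in D. In H2-Eb1 the values were 824 in A, 1149.7 in B, 1717 in C and 873 in D. All 3 chains were lowest in A and highest in C, by 3.35-fold, 2.44-fold and 2.08-fold. Those folds were well beyond counting error, with exact intervals for C over A of 3.01 to 3.73 for H2-Aa, 2.22 to 2.68 for H2-Ab1 and 1.90 to 2.29 for H2-Eb1. For H2-Aa, B and D did not differ beyond counting error (1.05-fold, 0.962 to 1.14), and neither did D and A for H2-Eb1 (1.06-fold, 0.957 to 1.17). How much genes of like abundance moved was measured, here and below, over genes with recovered reads in every library. For the 1212 of them with means within 1.5-fold of H2-Aa, the median fold between the highest and lowest library was 1.22. Genes with means above 1300 had no recovered reads and are not among them.

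The alpha and beta chains of the A molecule did not keep one ratio. H2-Aa over H2-Ab1 per kilobase was 0.611 in A (0.537 to 0.695), 0.722 in B (0.662 to 0.787), 0.840 in C (0.792 to 0.890) and 0.812 in D (0.750 to 0.881). A and B lay below C and D, although the intervals of B and D overlapped and only that of A was clear of both C and D. H2-Eb1 over H2-Ab1 went the other way, from 1.46 in A (1.298 to 1.64) and 1.36 in B to 1.25 in C (1.17 to 1.33) and 1.22 in D, with overlapping intervals. The libraries with H2-Ea-ps reads were thus those with the lower H2-Aa and the higher H2-Eb1 values relative to H2-Ab1. How far sequence differences between H2 alleles set these ratios was not tested.

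**Figure D1:**
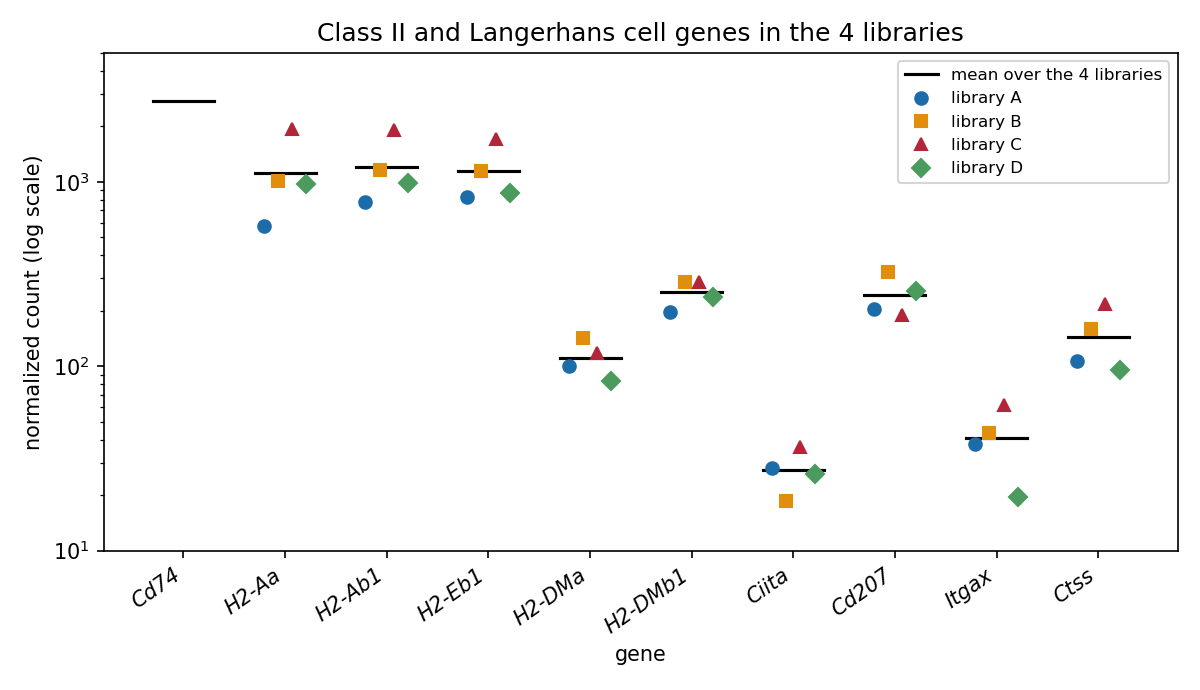
Normalized counts (vertical log axis) of the 10 genes in libraries A, B, C and D, with a line at the mean over the 4 libraries; Cd74 has its mean alone. The 3 class II chains are lowest in A and highest in C, where H2-Aa reached 1929.9, whereas Cd207 is lowest in C at 189.

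Promoter sequences are shown for the class II genes because these are the genes known to share a control module, the X box followed by the Y box, through which RFX, CREB and NF-Y recruit CIITA. RefSeq promoter windows (GRCm38.p6, 250 bases before to 50 after the start) were at hand for 7 of the 10 genes, and not for Cd74, H2-Ab1 or Ciita. The letters ATTGG (the core of the Y box) and AGNAAC followed after 2 bases by ATG (an X box pattern) were searched on both strands, after the sequences had been seen. In the 60 bases below, written 5′ to 3′ on the strand of the gene, capitals mark both matches.
H2-DMb1, chr17:34153085-34153144, plus strand: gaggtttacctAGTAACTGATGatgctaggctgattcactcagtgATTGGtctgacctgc
H2-Eb1, chr17:34305763-34305822, plus strand: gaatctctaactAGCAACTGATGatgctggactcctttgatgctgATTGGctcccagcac
H2-Aa, chr17:34287857-34287916, minus strand: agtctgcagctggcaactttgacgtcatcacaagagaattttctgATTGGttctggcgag
H2-Eb2, chr17:34325530-34325589, plus strand: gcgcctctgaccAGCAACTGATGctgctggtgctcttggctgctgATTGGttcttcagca
H2-Ob, chr17:34238803-34238862, plus strand: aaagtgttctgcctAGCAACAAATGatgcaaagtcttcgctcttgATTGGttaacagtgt

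Among the 10 genes, H2-DMb1 and H2-Eb1 held both patterns in that order. H2-Aa held the Y box letters and no match to this X box pattern. The search covered 1 fixed X box pattern, so a window without a match may still hold an X box. ATTGG alone is common, at 37.4% of 32851 mouse promoter windows, the X box pattern is in 0.895% of them and both together are in 0.399%. Ctss and Cd207 had neither pattern in their windows. Itgax had 1 match to ATTGG, and of the 2 windows listed for H2-DMa only 1 had ATTGG. H2-Eb2 and H2-Ob, which are no members of the 10 but neighbours on chromosome 17, held both patterns as well, whereas the relatives H2-Oa and H2-DMb2 had 1 match to ATTGG each and 0 to the X box pattern. Their levels show that the letters did not go with one level. H2-Eb2 had 2 reads in all 4 libraries together and a mean of 0.608 normalized counts, against 1141 for H2-Eb1.

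H2-DM, the peptide exchanger, was read at a lower level than the chains it serves. H2-DMb1 (DM beta chain, chromosome 17 from 34153191 to 34160229) had 197 normalized counts in A, 287 in B, 287 in C and 237 in D, with a mean of 252 and 170 per kilobase. H2-DMa (DM alpha chain, 34119693 to 34139101) had 101, 143, 118 and 83.3, with a mean of 111 and 67.7 per kilobase. Neither gene shared the peak of the classical chains in C. B and C held the same H2-DMb1 level within counting error (1.00-fold, 0.851 to 1.18), and H2-DMa was highest in B. Relative to H2-Ab1, H2-DMb1 per kilobase was 0.281 in A, 0.274 in B, 0.168 in C (0.149 to 0.188) and 0.267 in D (0.234 to 0.303). C was thus the library with less H2-DMb1 relative to H2-Ab1. H2-DMa was not set against a class II chain. H2-DMb1 has a close paralog, H2-DMb2, so reads may have been split between them, and H2-DMb2 was itself counted at a mean of 11.7 normalized counts.

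Ctss, the protease that trims the invariant chain, did follow the chains in part. Its normalized counts were 106 in A, 158 in B, 218 in C and 95.4 in D, with a mean of 144 (95% counting interval 133 to 156) and 106 per kilobase. C was again the highest library, 2.28-fold above D (1.83 to 2.87), and A and D did not differ beyond counting error (1.11-fold, 0.822 to 1.496). Of the other lysosomal proteases of the list, Ctsb had 8613 normalized counts and Ctsl 6479 as means. The 3 genes of that list with recovered reads were Ctsh, Lgmn and Ifi30, and Ifi30 does not encode a protease. These 3 genes summed to between 1791 in B and 2267 in A.

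Ciita, the master coactivator, was the lowest of the 10 genes. It lies on chromosome 16 from 10480014 to 10531064 and had 20, 18, 43 and 32 reads in A, B, C and D. As normalized counts these were 27.9, 18.6, 36.5 and 25.9, with a mean of 27.2 (22.1 to 32.4) and 4.39 per kilobase, higher than 25.1% of genes. C was highest here too, but it differed beyond counting error only from B (1.958-fold, 1.11 to 3.61) and not from A (1.31-fold, 0.752 to 2.34) or D (1.41-fold, 0.871 to 2.30). The highest-over-lowest fold of 1.958 was no larger than the median of 2.02 among the 1223 genes of like mean, so no pattern over the libraries can be read at this depth.

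The DNA-binding partners of CIITA were at another scale. All 7 genes of the list were detected, with means from 111 for Rfxap to 852 for Nfya. Nfya, Nfyb (291) and Nfyc (507) encode NF-Y, which binds the Y box, Rfx5 (301), Rfxap and Rfxank (131) encode the RFX complex, and Creb1 (629.9) encodes CREB. Their summed normalized counts were 2761 in A, 2812 in B, 2849 in C and 2872 in D. The highest sum was 1.04-fold the lowest, and the single genes differed by 1.05-fold (Nfyc) to 1.37-fold (Rfxap).

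Langerin differed from the class II chains in its order over the libraries. Cd207 (chromosome 6 from 83671207 to 83677857) had 205.2 normalized counts in A, 324 in B, 189 in C and 256 in D, with a mean of 243 (228 to 259) and 159 per kilobase, above 77.1% of genes. It was highest in B and lowest in C, 1.71-fold apart (1.44 to 2.04), so the library with the most class II chain had the least Cd207. A and C did not differ beyond counting error (1.08-fold, 0.875 to 1.34). Each Cd207 read was accompanied by 10.6 reads of the 3 chains in A (8.97 to 12.7), 10.3 in B (9.15 to 11.6), 29.3 in C (25.7 to 33.7) and 11.1 in D (9.87 to 12.5). The intervals of A, B and D overlapped, and C stood apart from all 3.

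**Figure D2:**
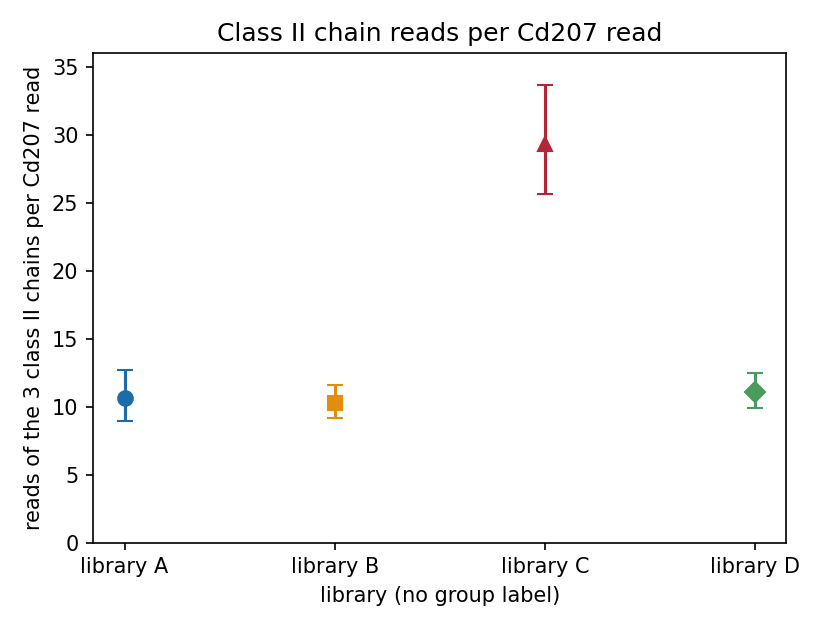
Reads of H2-Aa, H2-Ab1 and H2-Eb1 together per read of Cd207 in each library, with 95% exact counting intervals as bars. Libraries A, B and D lie between 10.3 and 11.1, and C at 29.3.

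Itgax, which encodes the integrin CD11c of dendritic cells and some macrophages, was low. Its normalized counts were 37.7 in A, 43.5 in B, 61.9 in C and 19.4 in D, from 27, 42, 73 and 24 reads. The mean was 40.6 (34.3 to 46.9), or 10.0 per kilobase, and the gene lies on chromosome 7 from 128129526 to 128150657. C was the highest, though not beyond counting error over B (1.42-fold, 0.962 to 2.14). C and D, the lowest, were 3.19-fold apart. Among 1387 genes with means within 1.5-fold of Itgax the median of such folds was 1.79, and 90.7% had a smaller one. Per Cd207 and per kilobase, Itgax stood at 0.124 in C (0.0937 to 0.162) and at 0.0695, 0.0507 and 0.0287 in A, B and D. Ctss showed the same order of C over the others, with 1.298 in C (1.08 to 1.56) against 0.582, 0.551 and 0.421, and so did the leukocyte antigen Ptprc, with 0.184 in C (0.149 to 0.227) against 0.0787, 0.0807 and 0.0591. Only Cd207 itself was low in C among these genes. Because Cd207 is the divisor, its low value raises all such ratios in C. H2-DMb1 (1.57), H2-DMa (0.581) and Ciita (0.0475) also had their highest ratio to Cd207 in C. For H2-DMa and Ciita the intervals overlapped those of other libraries, and that of Itgax in C overlapped that in A (0.0443 to 0.105).

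The macrophage and leukocyte lists had summed counts in the same order of libraries as the summed chains, lowest in A, then D, B and C, and the other leukocyte lists did not. The 10 macrophage genes, all above 0, summed to 1085 normalized counts in A, 2099.7 in B, 2536 in C and 1325 in D, led by Lyz2 (mean 449). The 10 leukocyte genes, led by Csf1r (173) and Laptm5 (144), had their highest value in C in 9 cases and their lowest in A or D in all 10. Conventional dendritic cell genes were lower, with sums of 94.9, 142, 173 and 76.8 in A, B, C and D. Cd209a (mean 66.9) and Zbtb46 (35.2) were at the top, Cd209a made up 129.8 of the sum in C, and 4 of the 6 genes were highest in B. In this list Xcr1 and Clec9a, the markers of the cross-presenting subset, had means of 4.795 and 2.93. The defining T and B cell genes were near 0: Cd3e had a mean of 9.52 and Pax5 was at 0. Thy1 (1043) and Lck (10.6) were the highest of the T cell list, and Cd79a (10.3) led the B cell list. How much of the class II signal came from macrophages or other leukocytes and how much from Langerhans cells was not tested.

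Mast cells and melanocytes, which share the skin, had another pattern. The melanocyte genes, led by Dct (498) and Pmel (219), were all 5 highest in B, with sums of 342, 2020.03, 691 and 843 in A, B, C and D, and the mast cell genes, led by Mcpt4 (52.2) and Cpa3 (37.2), were all 5 highest in B, with sums of 55.8, 285, 88.2 and 63.1. In the 3 fibroblast genes recovered (Dcn, Lum and Pdgfra) the sums were 593, 1078, 767 and 1038, and in the 2 suprabasal genes recovered (Ivl and Lor) they were 267, 1337, 736 and 538. The highest means of those lists belonged to Col1a1 (5186), Col1a2 (4699), Krt10 (7246) and Krt1 (2033). Those 4 genes, which are most of their lists, have no values per library. B thus held the most of the melanocyte and mast cell lists, and C the most class II chain. A had the lowest sum of the class II chains, macrophages, leukocytes, mast cells and melanocytes alike, and it was also the library with the fewest reads.

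**Figure D3:**
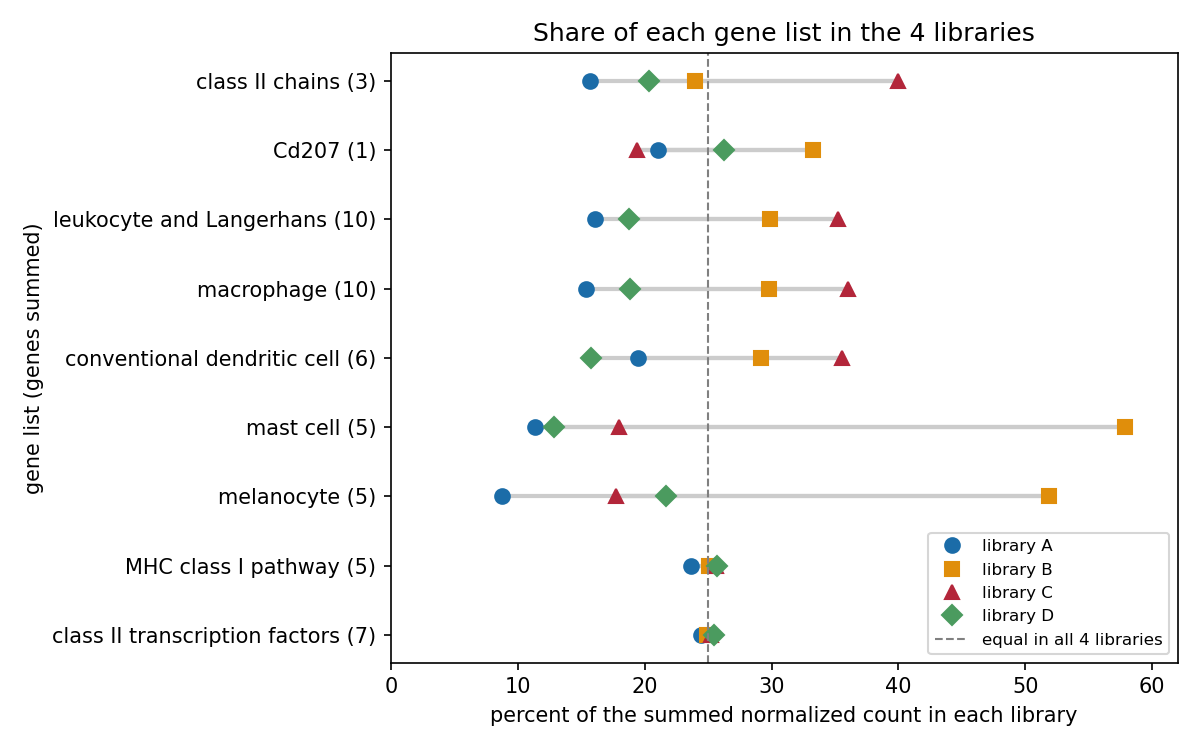
Share of the summed normalized count of each gene list that falls in library A, B, C or D (horizontal axis, percent), with the number of genes summed beside each list and a dashed line where all 4 would be equal. C holds 39.9% of the class II chains and 19.4% of Cd207, while B holds 51.8% of the melanocyte and 57.9% of the mast cell counts.

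The rest of the antigen presentation machinery was read as well. The class II relatives outside the 10 were low apart from H2-Ea-ps, with means of 11.3 for H2-Ob and 3.75 for H2-Oa, the chains of the H2-DO inhibitor of H2-DM. Of the maturation genes Cd83 (216) and Cd86 (66.3), a surface marker and a costimulator of activated dendritic cells, were the highest, and all 6 were above 0. In the class I pathway, which every nucleated cell uses, H2-K1 had 10517 normalized counts and B2m 7118. Its 5 recovered genes summed to 2842 in A, 3010.4 in B, 3075 in C and 3092 in D, 1.09-fold from lowest to highest. That sum leaves out H2-K1, H2-D1, B2m and Tapbp, which have no values per library, and single genes of it differed more, by 1.46-fold for Psmb8 and Psmb9 and 1.38-fold for Tap1.

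Together the 10 genes made up 0.0538% of all normalized counts. Cd74 alone was 39.0% of their sum of 7035, and Cd74 with the 3 chains was 88.4%. The 10 genes spanned 444-fold per kilobase, from Ciita to Cd74, and 8 of them stood above the median gene, which was at 39.5 per kilobase. In order of level per kilobase they ran from Cd74 through the 3 chains to H2-DMb1 (170), Cd207 (159), Ctss (106), H2-DMa (67.7), Itgax (10.0) and Ciita (4.39). H2-DMb1 and Cd207 are neighbours in this order whose mean counts overlap within counting error (236 to 267 and 228 to 259), so the order of that pair is not set.

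**Figure D4:**
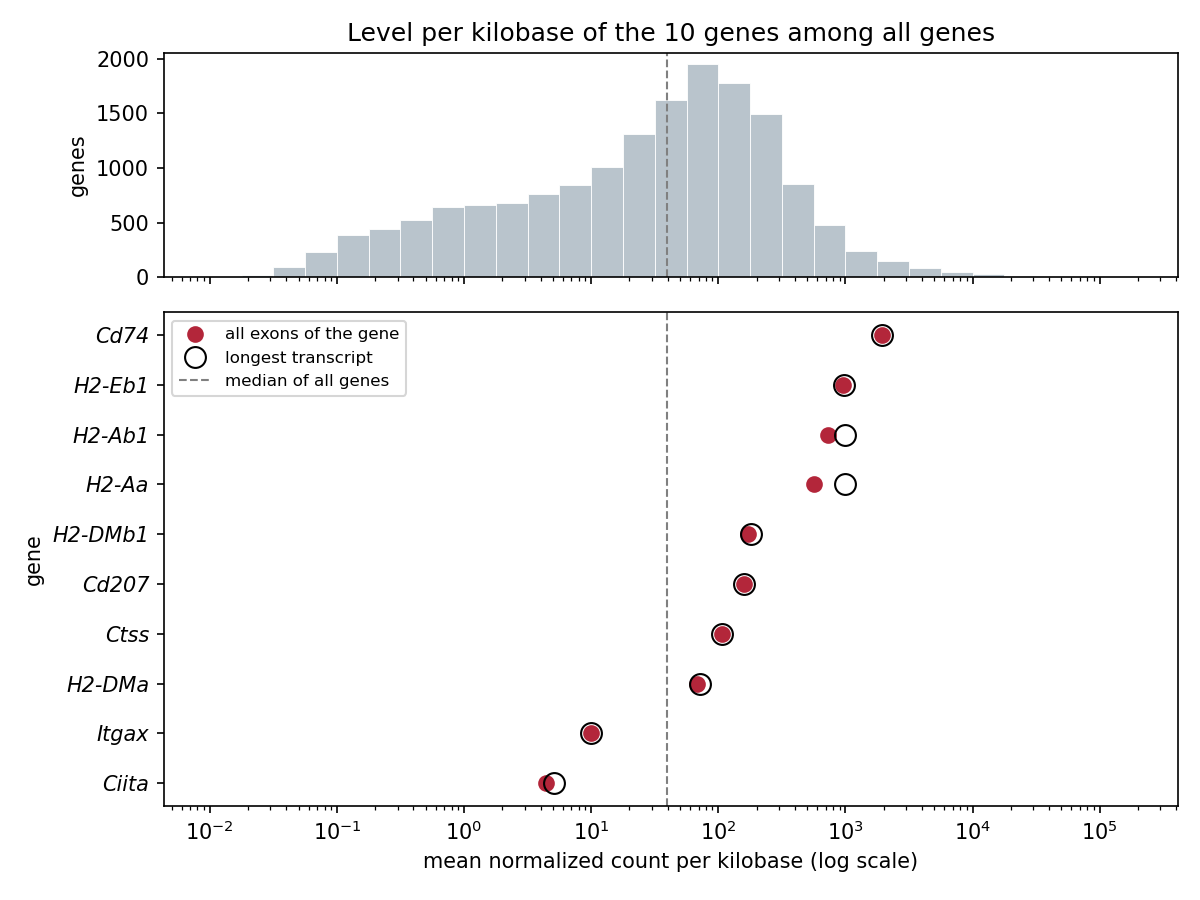
Lower panel: mean normalized count per kilobase (log axis) of each gene over all annotated exons (filled) and over the longest transcript (open). The upper panel counts all genes at each level and the dashed line marks their median of 39.5; Ciita and Itgax lie to its left and the other 8 genes to its right.

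The 3 summed chains had shares of 15.7%, 24.0%, 39.9% and 20.4% in A, B, C and D. Genes with the nearest shares were sought among 6877 other genes with recovered reads and a mean of at least 100. Genes with a mean above 1300, Cd74 among them, have no recovered reads and could not be found. The measure was the largest difference in any library, in percentage points. Carns1 (3.12), Mrc1 (3.17), Lilr4b (3.82), Angptl4 (4.01) and Alad (4.23) were the 5 nearest. Mrc1, the mannose receptor of macrophages, was read at 83.8, 154, 281 and 149.6 normalized counts. By the same measure the 3 chains themselves lay at 0.611 (H2-Ab1), 2.35 (H2-Eb1) and 3.01 (H2-Aa). Each chain is part of the sum it is set against, so its closeness is partly given in advance. Ctss lay at 3.86 and Cd207 at 20.5, the farthest of the 9 genes with recovered reads.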

How the data were processed

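Total RNA of sorted HF-SCs was sequenced from 2 Ctrl and 2 miR-205 induced samples, grouped by the labels. Per the methods, the authors aligned paired-end reads with HISAT2 2.1.0, used SAMtools 1.3.1, counted genes with HTSeq and fitted DESeq2 at default settings (for the last 2 the version, and for counting the annotation, is not given in the sources used here). The submitters' processing notes name mm10, which the methods also call NCBI37. The deposited table held, per gene, a mean signal over all 4 samples (the mean of counts divided by size factors, averaged by the authors) and their own fold change, its error, statistic, p-value and adjusted p-value. Those comparison columns were not used, so no test was run. The table held 0 columns of per-sample values.

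From the value of 1 read in each library (genes with a single read) the 4 size factors were obtained. An exhaustive search then found every set of 4 whole counts that gave each mean to its 15 digits, for means of at most 1300; of 15189 genes searched, 134 had several sets and 0 had none, and 1855 genes lay above. Size factors recomputed from the recovered reads by the median of ratios over 12111 genes differed by at most 1.74%. On simulated data (3875 genes) the true reads were among the sets found for 100% and exactly 1 set was found for 99.5%, right in 100% of those. Libraries recovered in this way carry no label and entered no group comparison. Ratios of reads have 95% exact binomial intervals, and those of means assume Poisson counts. A gene with 0 reads was given the limit of 3 reads. Normalized counts were divided by exon length (GENCODE vM1, lengths only), known for 95.9% of genes above 0. Gene positions and promoters are RefSeq, GRCm38.p6, which is mm10. Calculations ran in Python 3.11.15 with scipy 1.17.1, numpy 2.4.6 and numba 0.67.0, and figures in matplotlib 3.10.9.

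The members and gene lists were chosen with earlier results of these data known. Named were all 10 genes, all class II relatives and class II transcription factors, the 2 highest means and any gene at 0 of every other list (2 genes that this rule names are not reported here), and the 5 genes nearest to the chains. Ptprc, Ly6a, Cd34, Itga6, Lhx2, Xcr1, Clec9a, Cd3e, H2-D1, Tap1, Tapbp, Psmb8, Psmb9, the recovered fibroblast and suprabasal genes and Krt14 were named besides, after their values were seen. Ctsh, Lgmn, Ifi30 and Adamts13 were also named after their values were seen. Alternatives were other size factors, other reference genes, exon lengths and leaving out each library.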

Additional observations from a re-analysis of the deposited data

How the results depend on the processing

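The summed mean of the 9 genes with recovered reads (4291 normalized counts) ranged from 3569 to 4769.97 when each library was left out in turn, lowest without C and highest without A, so 1 library set part of this level. It was 4296 with depth taken from recovered reads and 4272 with recomputed size factors. The 18 folds between the highest and lowest library, over the 9 genes and both of those scalings, moved by at most 3.35%. The share of all normalized counts rose from 0.0538% to 0.0607% without the 10 highest genes. Of the 10 genes, 7 were above the median mean of 117, 8 above the median per kilobase and 4 above the median of genes with a mean over 50. H2-Aa over H2-Ab1 per kilobase went from 0.769 over all exons to 0.994 over the longest transcript, where the length of the gene model alone changed. Depth limits Ciita, with 113 reads in all, and Itgax, with 166. No paired analysis was possible because the recovered libraries carry no replicate number or group. Leaving out a replicate of a labelled group was not possible for the same reason.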

Other observations

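The presence or absence of 1 class II transcript split the 4 unlabelled libraries into pairs. H2-Ea-ps was the only 1 of 15055 genes with 0 reads in both C and D and at least 20 reads in each of A and B, and Mrgpra6, a sensory neuron receptor gene on chromosome 7 from 47185717 to 47189416, was the only gene with the reverse, at 0 and 0 reads in A and B against 1654 in C and 1531 in D. For each of the other 4 ways to choose the pair of libraries without reads, 0 genes met the rule. The rule is strict and leaves out genes with even 1 read in the empty pair. Adamts13 was such a gene, with 0, 1, 132 and 132 reads in A, B, C and D. H2-Q1, a class I gene of the same H2 region on chromosome 17 from 35320525 to 35328142, had 28 reads in A, 72 in B, 4 in C and 2 in D. These genes were picked after their values were seen, and their part in the ratios of the class II chains was not tested.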
